A study of Mus musculus with 18 samples.

Results

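The genes described here encode 10 chains of the receptors for IL-6, IL-12, IL-23, IL-27, IL-10 and interferon-gamma: Il6ra, Il6st, Il12rb1, Il12rb2, Il23r, Il27ra, Il10ra, Il10rb, Ifngr1 and Ifngr2. They were taken by name from the 14011 genes of the authors' normalized table, where all 10 were found, and all 10 passed the filter on low counts that left 12445 genes for testing. They were read in regulatory T cells (TR), the CD4+ T cells that express Foxp3 and restrain other lymphocytes. Of these, 3 populations were sorted from peripheral lymph node and from spleen of 3 littermate C57BL/6 mice (84, 86 and 87). Every mouse carried reporters for Id3 (Id3-GFP) and Foxp3 (Foxp3-mRFP), so all groups share both alleles. The populations are effector TR without the Id3 reporter (Id3- eTR), effector TR with it (Id3+ eTR, gated as CD62L-low and CD44-high) and central TR with it (Id3+ cTR, gated as CD62L-high and CD44-low). The labels give no CD62L and CD44 gate for Id3- eTR, and no age. Each of the 18 libraries was made from 500 cells, and each of the 6 groups holds 3 libraries from separate mice.

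The receptors work in pairs. IL-6 binds its own chain, encoded by Il6ra, and the complex signals through gp130, encoded by Il6st. IL-27 signals through Il27ra together with the same gp130. IL-12 and IL-23 share the chain of Il12rb1, which pairs with Il12rb2 for IL-12 and with Il23r for IL-23. IL-10 is bound by the chain of Il10ra and signals with Il10rb, and interferon-gamma is bound by the chain of Ifngr1 and signals with Ifngr2. Behind the receptors stand the JAK kinases and STAT proteins, among them STAT3 (IL-6, IL-10, IL-23, IL-27) and STAT4 (IL-12). In TR, IL-10 acting on STAT3 is known to maintain suppressive function, and interferon-gamma, IL-12 and IL-27 are known to induce T-bet.

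Libraries held 1600782 to 3153325 counts. The transcripts of the sort followed the labels: Id3 averaged 71.4 ± 11.3, 296 ± 7.65 and 269 ± 22.0 CPM (counts scaled to a common library total) in lymph node Id3- eTR, Id3+ eTR and Id3+ cTR (SD, n = 3 each), and 58.5 ± 12.5, 248 ± 38.4 and 278 ± 26.5 CPM in the same populations of spleen. The 8 TR markers summed to between 2829 and 4074 CPM in every library, and none was at 0 in any group. Spleen Id3+ eTR of mouse 84 differed from its partners by 20.9 and 21.1 times the counting variance, where the other pairs within a group lay between 4.16 and 7.76 times. The lowest totals belonged to spleen Id3+ cTR of mice 84 and 87. For the receptor and pathway genes, results that rest on these 3 libraries are given with and without them where the call changes. Markers of other cells outside the pathway lists were not refitted without them. With the 3 left out, spleen Id3+ cTR holds mouse 86 alone, and spleen Id3+ eTR holds mice 86 and 87. A call against spleen Id3+ cTR that is lost there cannot be told apart from the loss of libraries. CPM are scaled by TMM, changes are log2 fold changes ± SE, and a gene is called at an adjusted p under 0.05 in edgeR's quasi-likelihood test over all 12445 genes. Every call named below for a receptor or pathway gene went the same way in 3 of 3 mice, apart from that of Clcf1. Calls of markers of other cells outside the pathway lists were not read by mouse. The p-values rest on the spread between libraries within groups, pooled over all 18 libraries of these 3 littermates. They include no mouse term.

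Id3 encodes an inhibitor of E proteins, transcription factors that bind the E-box CANNTG. The bases before the start site are shown for Il6ra, Il23r and Ifngr2, the genes with a sequence at hand whose difference between Id3- eTR and Id3+ cTR was called in every alternative run in 1 of the tissues. They are RefSeq sequences of build GRCm38.p6, 250 bases upstream of the gene start and read along the gene's strand, with every CANNTG in capitals.
Il6ra, chr3:89913197-89913446, minus strand: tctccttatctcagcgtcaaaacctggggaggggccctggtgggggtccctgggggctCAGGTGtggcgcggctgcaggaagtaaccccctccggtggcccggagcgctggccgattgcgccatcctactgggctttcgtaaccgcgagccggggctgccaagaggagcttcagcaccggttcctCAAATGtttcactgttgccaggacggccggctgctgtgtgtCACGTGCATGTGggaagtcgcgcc
Il23r, chr6:67491856-67492105, minus strand: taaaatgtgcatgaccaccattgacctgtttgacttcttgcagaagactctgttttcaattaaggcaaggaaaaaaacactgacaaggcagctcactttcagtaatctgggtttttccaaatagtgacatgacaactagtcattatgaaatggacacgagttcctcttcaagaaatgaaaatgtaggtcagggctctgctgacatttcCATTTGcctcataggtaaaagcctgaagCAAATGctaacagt
Ifngr2, chr16:91546809-91547058, plus strand: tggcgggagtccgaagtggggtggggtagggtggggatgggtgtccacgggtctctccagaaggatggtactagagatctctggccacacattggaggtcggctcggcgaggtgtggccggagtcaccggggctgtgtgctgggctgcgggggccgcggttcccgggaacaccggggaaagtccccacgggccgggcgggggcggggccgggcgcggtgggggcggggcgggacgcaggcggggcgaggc

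The Il6ra window holds 4 matches to CANNTG, of which the last 2 adjoin each other, the Il23r window holds 2, and the Ifngr2 window holds 0. The motif reads the same on both strands and occurs in 66.2% of the 32851 RefSeq windows of this length. Windows were found for 6 of the 10 genes; that of Il6st holds 1 match, that of Il12rb2 holds 1 and that of Ifngr1 holds 0. The STAT motif TTCNNNGAA, present in 7.02% of all windows, was found in the Il12rb2 window alone among the 6, and TGANTCA (AP-1, 6.75% of all windows) and GTAAACA (forkhead, 3.17%) in none of them. The windows differ in base composition, with 65.2% G and C for Il6ra, 39.6% for Il23r and 74.0% for Ifngr2, against a median of 52.4%. In the genome Il12rb2 and Il23r are neighbours on chromosome 6, and Il10rb and Ifngr2 stand on chromosome 16 in 1 row with the type I interferon receptor genes Ifnar2 and Ifnar1.

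Per kilobase of exon, Ifngr1 was the most abundant of the 10 transcripts, with 142 CPM per kb on average over the 6 groups. Il27ra followed with 99.3, Il10ra with 38.4, Il10rb with 34.6 and Ifngr2 with 22.3 CPM per kb. The IL-6 chains Il6st and Il6ra averaged 16.6 and 11.5 CPM per kb. The chains for IL-12 and IL-23 were the lowest, with 6.49 CPM per kb for Il12rb1, 3.96 for Il23r and 2.07 for Il12rb2. The group means of Il10rb, Il27ra and Ifngr1 spread little, with SDs over the 6 groups of 0.10, 0.14 and 0.21 in mean log2 CPM. Those of Il23r and Il12rb1 spread most, with SDs of 2.35 and 1.38.

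**Figure D1:**
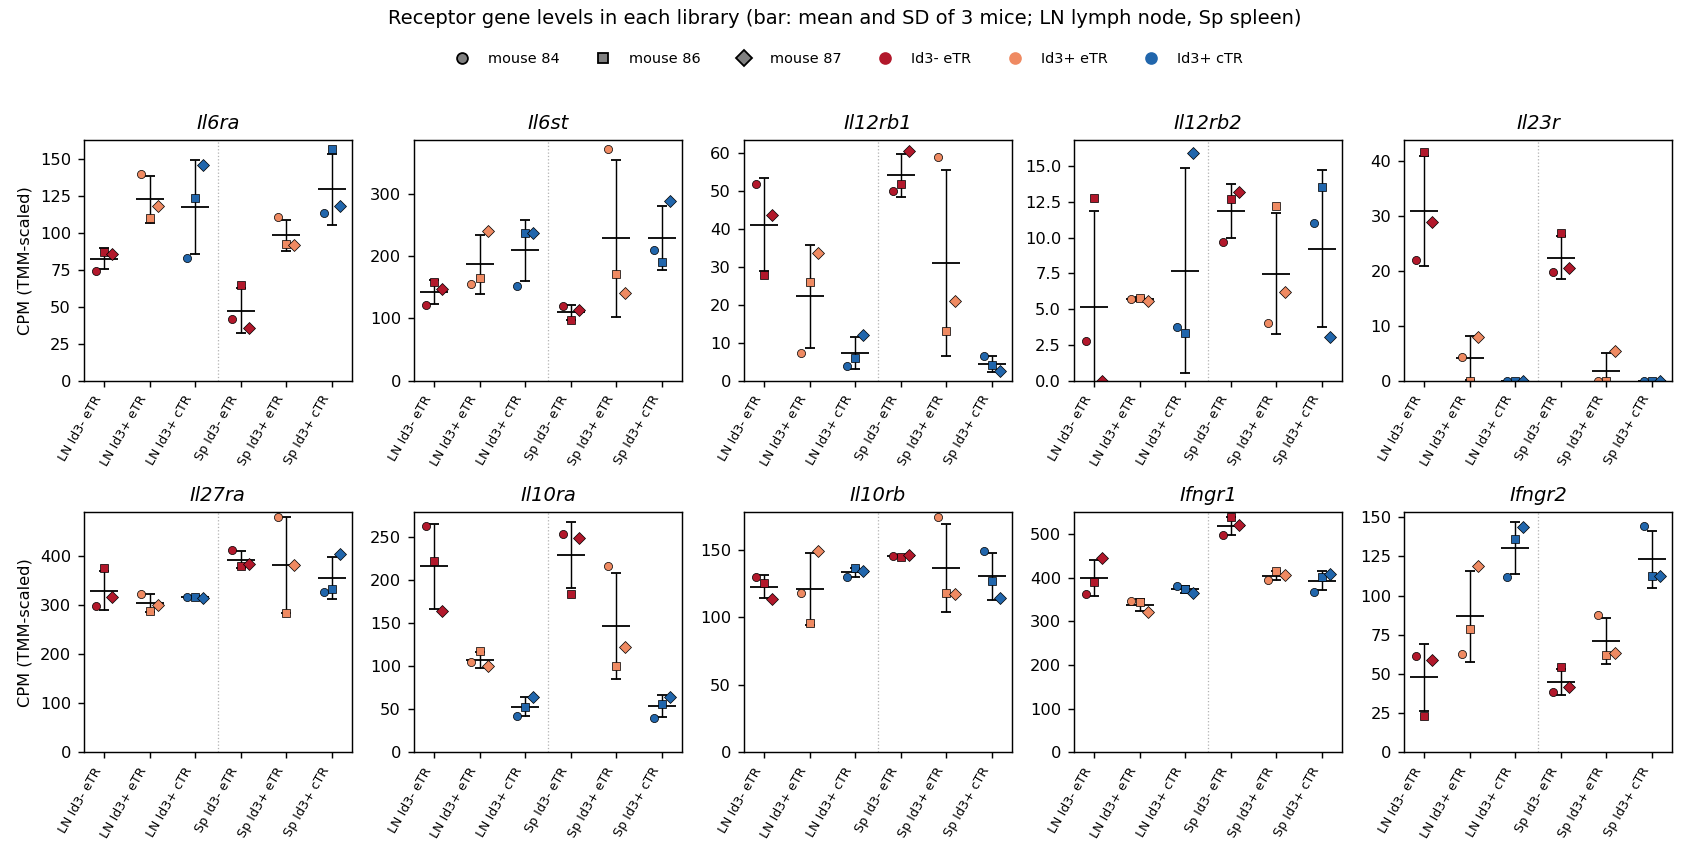
Level of each receptor gene in each of the 18 libraries, in CPM on TMM-scaled totals (vertical axis, starting at 0) for the 6 groups (LN, lymph node; Sp, spleen); symbols are mice and bars the mean and SD of 3 mice. Il10ra stands highest in Id3- eTR and lowest in Id3+ cTR of each tissue, Il23r is at 0 in all Id3+ cTR libraries, and Ifngr2 runs in the opposite order to Il10ra.

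Id3- eTR differed from Id3+ cTR in the chains that bind or complete the receptors for IL-10, IL-23 and interferon-gamma, in both tissues. Il10ra, Il12rb1 and Il23r rose and Ifngr2 fell. In spleen the IL-6 chains Il6ra and Il6st also fell and Ifngr1 rose. The calls covered 4 of the 10 genes in lymph node, 3 higher and 1 lower, and 7 of 10 in spleen, 4 higher and 3 lower. Over all genes tested, 12.9% were called in lymph node (8.26% higher, 4.68% lower) and 12.3% in spleen (7.17% higher, 5.09% lower). The median log2 change of the 10 was -0.03 in lymph node and 0.25 in spleen, beside 0.00 for all genes in each tissue. Without the 3 libraries that stand apart, mouse 86 alone remained in spleen Id3+ cTR. Fewer of the 10 were then called in spleen, only Il6ra, Il12rb1 and Il10ra.

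Id3+ eTR differed from Id3+ cTR in fewer of these genes. Il10ra rose in both tissues and Il12rb1 in spleen, which makes 1 of 10 called in lymph node and 2 of 10 in spleen, all higher. Of all genes, 5.66% were called in lymph node (4.2% higher, 1.46% lower) and 4.32% in spleen (2.93% higher, 1.39% lower). Id3- eTR and Id3+ eTR differed by 1 of 10 genes in lymph node, Il10ra (2.62% of all genes called, 1.45% higher and 1.17% lower), and by 2 of 10 in spleen, Il6ra lower and Ifngr1 higher in Id3- eTR (3.28% of all genes called, 1.53% higher and 1.75% lower). Comparisons that share a population are not independent of each other.

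Il6ra encodes the chain that binds IL-6. In spleen it stood at 41.7, 64.5 and 35.4 CPM in Id3- eTR of mice 84, 86 and 87, at 111, 92.4 and 91.7 CPM in Id3+ eTR and at 113, 157 and 118 CPM in Id3+ cTR. Every Id3- eTR library was below every library of the other populations, and Id3+ eTR and Id3+ cTR did not overlap either. The log2 change of Id3- eTR was -1.47 ± 0.23 against Id3+ cTR (edgeR adjusted p = 0.000325) and -1.07 ± 0.23 against Id3+ eTR (edgeR adjusted p = 0.0136). The difference from Id3+ eTR was not called with only these groups in the fit (edgeR adjusted p = 0.142), without the 3 libraries that stand apart (0.0649), or without Id3- eTR of mouse 84 (0.0636) or 87 (0.0786). Because the libraries are pools of cells, fewer cells with a transcript and less of it per cell cannot be told apart, for Il6ra or for any gene below.

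In lymph node Il6ra was at 74.3, 86.9 and 85.9 CPM in Id3- eTR, at 140.0, 109.8 and 118 CPM in Id3+ eTR and at 83.3, 123 and 146 CPM in Id3+ cTR. The Id3- eTR libraries lay below those of Id3+ eTR and overlapped those of Id3+ cTR through mouse 84. The log2 changes were -0.51 ± 0.22 against Id3+ cTR and -0.57 ± 0.22 against Id3+ eTR, and neither was called (edgeR adjusted p = 0.153 and 0.247). The log2 change between Id3- eTR and Id3+ cTR was higher in lymph node than in spleen by 0.95 ± 0.32, a difference that was not called (edgeR adjusted p = 0.606).

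Il6st encodes gp130, the signalling chain shared by IL-6 and IL-27. In spleen it was at 119, 96.5 and 113 CPM in Id3- eTR, at 372, 172 and 140.3 CPM in Id3+ eTR and at 209, 191 and 287 CPM in Id3+ cTR. Id3- eTR lay below both other populations in every library, and Id3+ eTR of mouse 84 was the highest of all 18. The log2 change of Id3- eTR against Id3+ cTR was -1.06 ± 0.30 (edgeR adjusted p = 0.0284). This call was lost under limma-voom (adjusted p = 0.0757), without the 3 libraries that stand apart (edgeR adjusted p = 0.135), and when any of the Id3- eTR libraries or the Id3+ cTR library of mouse 84 or 87 was left out (edgeR adjusted p from 0.0521 to 0.130).

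Against Id3+ eTR the spleen change of Il6st was of the same size, -1.06 ± 0.30, and was not called (edgeR adjusted p = 0.0649). DESeq2 called it (-1.05, adjusted p = 0.00924), and so did edgeR without Id3+ eTR of mouse 87 (-1.31, adjusted p = 0.0178). In lymph node Il6st was at 121, 158 and 146 CPM in Id3- eTR, at 154, 165 and 241 CPM in Id3+ eTR and at 152, 236 and 237 CPM in Id3+ cTR. The groups overlapped, and the log2 change between Id3- eTR and Id3+ cTR was -0.56 ± 0.29 (edgeR adjusted p = 0.26).

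Il27ra, the chain that binds IL-27, differed in none of the population comparisons. It ran from 298 to 376 CPM in Id3- eTR, from 289 to 324 CPM in Id3+ eTR and from 315 to 318 CPM in Id3+ cTR of lymph node. In spleen it ran from 381 to 413, from 284 to 480.5 and from 327 to 405 CPM in the same populations. Between Id3- eTR and Id3+ cTR the 95% interval of the ratio was 0.858 to 1.27 in lymph node and 0.910 to 1.35 in spleen.

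Il12rb1 encodes the chain common to the receptors for IL-12 and IL-23. In lymph node it was at 51.9, 27.8 and 43.5 CPM in Id3- eTR, at 7.17, 25.9 and 33.6 CPM in Id3+ eTR and at 3.79, 5.95 and 12.1 CPM in Id3+ cTR. In spleen it was at 50.005, 51.8 and 60.5 CPM in Id3- eTR, at 59.0, 13.02 and 21.0 CPM in Id3+ eTR and at 6.50, 3.996 and 2.47 CPM in Id3+ cTR. Id3- eTR and Id3+ cTR did not overlap in either tissue, while Id3+ eTR reached from near the level of Id3+ cTR to that of Id3- eTR.

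The log2 change of Il12rb1 in Id3- eTR against Id3+ cTR was 2.49 ± 0.58 in lymph node (edgeR adjusted p = 0.0102) and 3.65 ± 0.66 in spleen (edgeR adjusted p = 0.00111). The lymph node call was lost without Id3+ cTR of mouse 84 (edgeR adjusted p = 0.0504), and the spleen call held in every alternative run. In Id3+ eTR against Id3+ cTR the change was 2.85 ± 0.66 in spleen (edgeR adjusted p = 0.0193) and 1.62 ± 0.59 in lymph node, where it was not called (edgeR adjusted p = 0.148). The spleen call of Id3+ eTR leaned on mouse 84: without that library the change was 1.98 (edgeR adjusted p = 0.107), and without all 3 libraries that stand apart it was 2.08 (0.464). It was also lost without Id3+ cTR of mouse 86 (0.0572) or 87 (0.1003), with only these groups in the fit (0.0828) and under limma-voom (0.161). Between Id3- eTR and Id3+ eTR the changes were 0.87 ± 0.55 in lymph node and 0.80 ± 0.54 in spleen, neither called.

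Il23r encodes the chain that makes the shared Il12rb1 chain respond to IL-23, and is known as a gene of the type 17 lineage. In lymph node it was at 22.0, 41.6 and 28.9 CPM in Id3- eTR, at 4.30, 0 and 7.96 CPM in Id3+ eTR and at 0 in all 3 libraries of Id3+ cTR. Spleen libraries had 19.8, 26.8 and 20.5 CPM in Id3- eTR, 0, 0 and 5.44 CPM in Id3+ eTR and again 0 in all 3 libraries of Id3+ cTR. Every Id3- eTR library was above every library of the other populations in both tissues.

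Counted over the 3 mice, Il23r had 251 counts in lymph node Id3- eTR, 32 in Id3+ eTR and 0 in Id3+ cTR, and 171, 14 and 0 counts in the same populations of spleen. A count of 0 over Id3+ cTR allows a level of up to 0.354 CPM in lymph node and 0.530 CPM in spleen (3 counts over the group, counting error only). With 3 counts over the group in place of 0, Il23r was at least 87.8-fold higher in Id3- eTR than in Id3+ cTR of lymph node (edgeR adjusted p = 0.00559) and at least 41.5-fold higher in spleen (edgeR adjusted p = 0.013). The spleen call was lost without the 3 libraries that stand apart (edgeR adjusted p = 0.127). The counts of Id3+ eTR did not pass the test against Id3+ cTR (edgeR adjusted p = 0.105 in lymph node and 0.278 in spleen). The lymph node difference passed it without Id3+ eTR of mouse 86, the library at 0 (edgeR adjusted p = 0.048).

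Between Id3- eTR and Id3+ eTR the log2 change of Il23r was 2.89 ± 1.09 in lymph node and 3.61 ± 1.18 in spleen, and edgeR called neither (adjusted p = 0.267 and 0.142). limma-voom called both (adjusted p = 0.0179 and 0.0234), and so did, in spleen, limma on the authors' normalized values (adjusted p = 0.0172). edgeR also called the spleen difference without Id3+ eTR of mouse 87, the only library of that group with counts of Il23r (adjusted p = 0.0207).

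Il12rb2, the chain specific to the IL-12 receptor, was low everywhere, with 0 to 45 counts per library and 356 counts in all. Its group means lay between 5.18 and 11.9 CPM, with ranges that overlapped between all populations within a tissue. The log2 change of Id3- eTR against Id3+ cTR was -0.56 ± 0.93 in lymph node and 0.35 ± 0.92 in spleen, and the interval of the ratio, 0.190 to 2.41 and 0.365 to 4.43, leaves room for changes of several fold either way. Of its 3794 exon bases, 1519 overlap Serbp1 on the opposite strand, which had 15373 counts over all libraries, and the library kit does not mark strand. Reads of Il12rb2 and Serbp1 therefore cannot be told apart there.

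Il10ra encodes the chain that binds IL-10, and its mean level was highest in Id3- eTR, next in Id3+ eTR and lowest in Id3+ cTR of both tissues. In lymph node it was at 263, 222 and 164 CPM in Id3- eTR, at 105, 118 and 100.4 CPM in Id3+ eTR and at 42.4, 52.3 and 64.3 CPM in Id3+ cTR. The 3 populations did not overlap in lymph node. In spleen it was at 254, 185 and 249 CPM in Id3- eTR, at 217, 101 and 122 CPM in Id3+ eTR and at 40.3, 56.3 and 64.7 CPM in Id3+ cTR. There Id3- eTR and Id3+ eTR overlapped through Id3+ eTR of mouse 84, and both stood above Id3+ cTR.

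Against Id3+ cTR, Il10ra was higher in Id3- eTR by 2.03 ± 0.26 in lymph node (edgeR adjusted p = 5.03e-05) and by 2.09 ± 0.27 in spleen (edgeR adjusted p = 5.75e-05), on the log2 scale. Both calls held in every alternative run. In Id3+ eTR the log2 change was 1.02 ± 0.26 in lymph node (edgeR adjusted p = 0.0288) and 1.45 ± 0.27 in spleen (edgeR adjusted p = 0.00513). The lymph node call was lost under limma-voom (adjusted p = 0.0843) and when any library except Id3+ cTR of mouse 87 was left out (edgeR adjusted p from 0.0545 to 0.124). The spleen call was lost without the 3 libraries that stand apart (log2 change 0.99, edgeR adjusted p = 0.253), with only these groups in the fit (0.0716) and under limma-voom (0.0536).

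Between Id3- eTR and Id3+ eTR, Il10ra was higher in Id3- eTR of lymph node by 1.002 ± 0.25 on the log2 scale (edgeR adjusted p = 0.0465). This call was lost with the mouse as a block (edgeR adjusted p = 0.065) and in limma on the normalized values (adjusted p = 0.0885). It was also lost when any library except Id3- eTR of mouse 87 was left out (edgeR adjusted p up to 0.196). In spleen the change was 0.64 ± 0.25 (edgeR adjusted p = 0.195), and it was called without Id3+ eTR of mouse 84 (1.04, edgeR adjusted p = 0.0177) and without all 3 libraries that stand apart (1.05, edgeR adjusted p = 0.02).

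Il10rb, the signalling chain of the IL-10 receptor that other IL-10 family receptors share, stayed within 96.2 to 149 CPM in lymph node and 115 to 174 CPM in spleen. It was called in none of the comparisons. Of its exon bases, 569 overlap the predicted gene Gm21970 on the same strand, which had 0 counts, so reads there could not be assigned to either gene with certainty. In lymph node, Id3- eTR (113 to 129.7 CPM) and Id3+ cTR (129.8 to 137 CPM) did not overlap by a narrow margin, with a log2 change of -0.12 ± 0.17. The 95% interval of the ratio between Id3- eTR and Id3+ cTR was 0.734 to 1.15 in lymph node and 0.888 to 1.40 in spleen.

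Ifngr1 encodes the chain that binds interferon-gamma. In spleen it was at 498, 539 and 522 CPM in Id3- eTR, at 394, 416 and 405 CPM in Id3+ eTR and at 368, 402 and 409 CPM in Id3+ cTR. Id3- eTR was above both other populations in every library, which overlapped each other. The change was small, at 0.40 ± 0.08 on the log2 scale against Id3+ cTR (edgeR adjusted p = 0.00261) and 0.36 ± 0.08 against Id3+ eTR (edgeR adjusted p = 0.0173). Without the 3 libraries that stand apart, the change against Id3+ cTR was 0.38 and not called (edgeR adjusted p = 0.0508). The change against Id3+ eTR was not called with only these groups in the fit (edgeR adjusted p = 0.179), or without Id3- eTR of mouse 86 (0.0707) or 87 (0.0619).

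In lymph node Ifngr1 was at 364, 390.2 and 446 CPM in Id3- eTR, at 346, 345 and 322 CPM in Id3+ eTR and at 380.4, 375 and 364 CPM in Id3+ cTR. Id3- eTR and Id3+ cTR overlapped, and the log2 change was 0.10 ± 0.08 (edgeR adjusted p = 0.513). Id3+ eTR lay below both other populations, with no call in edgeR. Against Id3+ eTR the change of Id3- eTR was 0.24 ± 0.08 (edgeR adjusted p = 0.145; 0.0478 in DESeq2).

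Ifngr2 encodes the chain that interferon-gamma needs to signal, and its level is known to set how T cells respond. In lymph node it was at 61.3, 23.0 and 59.2 CPM in Id3- eTR, at 63.1, 78.5 and 119 CPM in Id3+ eTR and at 112, 136 and 144 CPM in Id3+ cTR. Spleen libraries held 38.9, 54.6 and 42.1 CPM in Id3- eTR, 87.8, 61.9 and 63.3 CPM in Id3+ eTR and 144, 113 and 112 CPM in Id3+ cTR. Id3- eTR was below the other populations in every library of both tissues, and Id3+ eTR overlapped Id3+ cTR in lymph node but not in spleen.

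The log2 change of Ifngr2 in Id3- eTR against Id3+ cTR was -1.45 ± 0.30 in lymph node (edgeR adjusted p = 0.00365) and -1.45 ± 0.30 in spleen (edgeR adjusted p = 0.00414). The lymph node call held in every alternative run, and the spleen call was lost without the 3 libraries that stand apart (log2 change -1.31, edgeR adjusted p = 0.0944). Id3+ eTR lay between the other populations on average, with log2 changes against Id3+ cTR of -0.58 ± 0.29 in lymph node and -0.79 ± 0.30 in spleen that were not called (edgeR adjusted p = 0.35 and 0.149). Those of Id3- eTR against Id3+ eTR, -0.86 ± 0.30 and -0.66 ± 0.30, were not called either (edgeR adjusted p = 0.182 and 0.295).

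**Figure D2:**
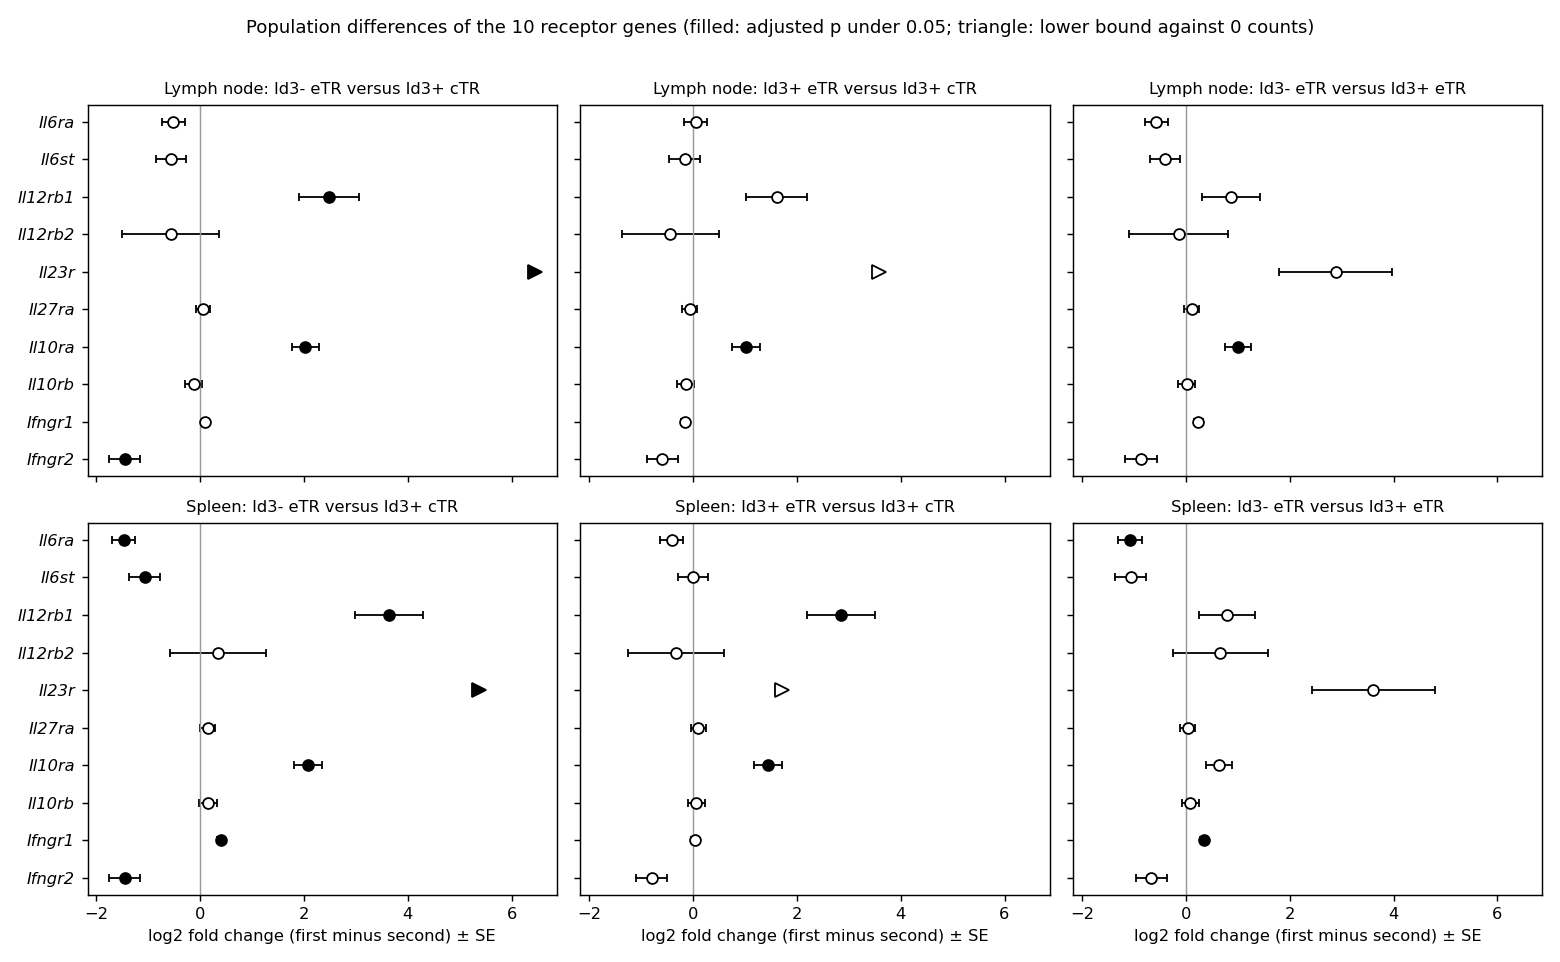
Log2 fold change ± SE of the 10 receptor genes in the 6 population comparisons, the population named first minus the one named second; filled points have an adjusted p under 0.05 in edgeR. A triangle is the lower bound for Il23r against Id3+ cTR, where it had 0 counts. Il10ra and Il12rb1 lie to the right in every comparison, and Ifngr2 to the left, with the largest changes between Id3- eTR and Id3+ cTR.

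The chains of a receptor can be set against each other within a library, where scaling between libraries has no part. This measure was added after the values were seen and carries no test. Per kb of exon, the ratio of Ifngr2 to Ifngr1 was 0.0908 ± 0.0423 in Id3- eTR, 0.196 ± 0.0734 in Id3+ eTR and 0.265 ± 0.0390 in Id3+ cTR of lymph node (SD, n = 3 each). In spleen it was 0.0655 ± 0.00968, 0.133 ± 0.0308 and 0.238 ± 0.0503 in the same populations. Ifngr2 was thus the scarcer chain transcript in all 18 libraries, and the 3 populations of spleen did not overlap.

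The ratio of Il10ra to Il10rb ran the other way. It was 1.90 ± 0.313 in Id3- eTR, 1.01 ± 0.305 in Id3+ eTR and 0.431 ± 0.0839 in Id3+ cTR of lymph node, and 1.71 ± 0.281, 1.14 ± 0.214 and 0.464 ± 0.161 in spleen (SD, n = 3 each). The 3 populations did not overlap in either tissue. Il10ra exceeded Il10rb in all 6 Id3- eTR libraries and fell below it in all 6 Id3+ cTR libraries. The ratio of Il6ra to Il6st showed no such order: it was 0.749 ± 0.0402, 0.883 ± 0.269 and 0.721 ± 0.0625 in lymph node, and 0.570 ± 0.250, 0.637 ± 0.234 and 0.760 ± 0.269 in spleen. The ratio of Il27ra to Il6st was 7.403 ± 0.480, 5.40 ± 1.36 and 5.03 ± 1.38 in lymph node and 11.5 ± 0.936, 6.00 ± 2.36 and 4.999 ± 0.542 in spleen, with Id3- eTR above the other populations in each tissue.

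**Figure D3:**
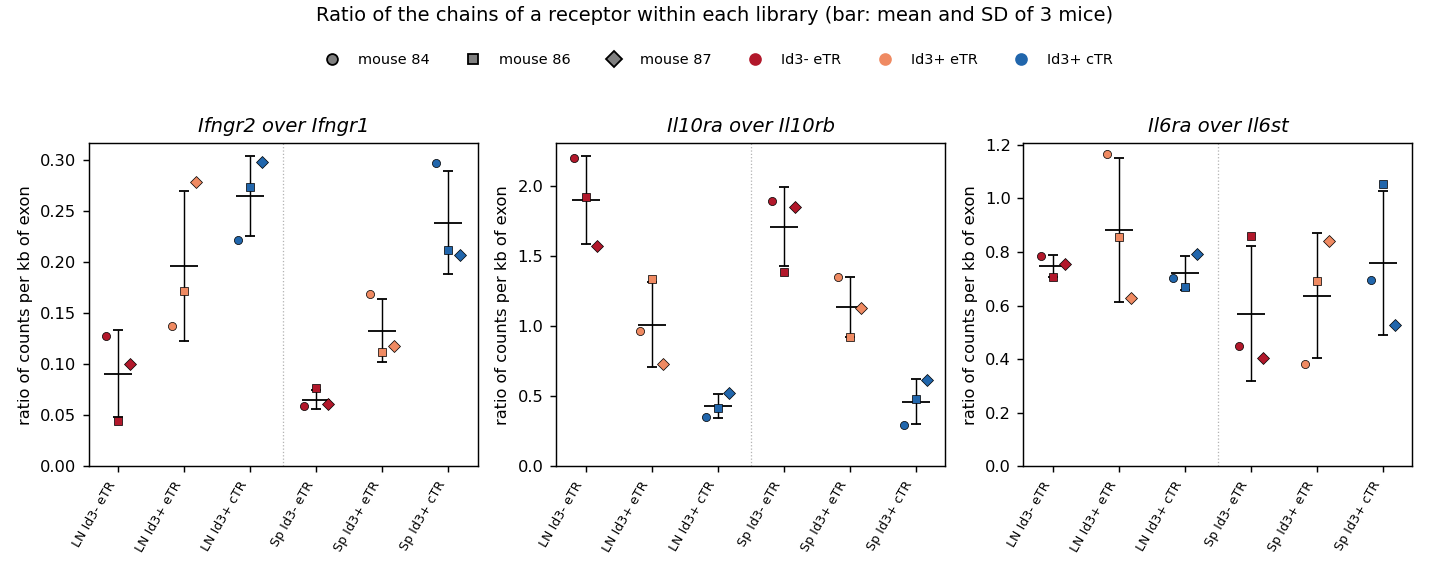
Ratio of the counts per kb of exon of both chains of a receptor in each library (vertical axis, starting at 0) for the 6 groups; symbols are mice and bars the mean and SD of 3 mice. Ifngr2 over Ifngr1 is lowest in Id3- eTR, Il10ra over Il10rb is highest there, and Il6ra over Il6st overlaps between all populations.

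The receptor genes gave no call between the tissues in edgeR, which does not show that their levels are equal. Comparing lymph node with spleen, edgeR called 0 of the 10 in Id3- eTR, Id3+ eTR and Id3+ cTR, where it called 0.305%, 0.289% and 0.00804% of all genes. At an unadjusted p under 0.05 there were 2, 2 and 0, and limma-voom and DESeq2 each called 1, 0 and 0. The nearest to a call was Ifngr1 in Id3- eTR, lower in lymph node in 3 of 3 mice with a log2 change of -0.38 ± 0.08 (edgeR adjusted p = 0.0579). That difference was called by limma-voom (adjusted p = 0.0251), by limma on the normalized values (0.0219), by DESeq2 (0.0011) and by edgeR without lymph node Id3- eTR of mouse 87 (0.0304). In the tests of whether a population difference itself differed between the tissues, edgeR called 0 of the 10 in each, beside 0.0241% of all genes for Id3- eTR against Id3+ cTR and 0% for the others, and 2, 0 and 0 of the 10 had an unadjusted p under 0.05. limma-voom and DESeq2 called 0 as well.

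Some genes followed the receptor genes closely over the 18 libraries, as a description: the libraries share mice, scaling and the 6 groups. Genes are ordered by Pearson r, and the order by Spearman rho differed. Il23r had 0 counts in all Id3+ cTR libraries and in some of Id3+ eTR, which enter its r at the same floor value. By r, Il23r was most like Id2, an inhibitor of E proteins like Id3 (Pearson r = 0.95, Spearman rho = 0.79), which stood at rank 122 by rho, where Psen2 was first (0.92). Next by r came the chemokine receptor Cxcr6 (0.94 and 0.88) and the lysosomal Lamp2 (0.92 and 0.89). By the same measure Il10ra was most like Mmd (0.96 and 0.92), Rbl2, a retinoblastoma family member (0.95 and 0.93), and Sdcbp2 (0.95 and 0.94). Il12rb1 was most like the ceramide synthase Cers4 (0.95 and 0.94), the kinase Matk (0.91 and 0.86) and Dkkl1 (0.91 and 0.82). Ifngr2 was most like Airn (0.93 and 0.93), Sipa1l1 (0.89 and 0.91) and Itm2a (0.89 and 0.95).

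The other receptor genes had weaker partners. The gene most like Il6st was the kinase Mapk11 (r = 0.87), that of Il10rb Spop (0.84), that of Ifngr1 the oxysterol receptor Gpr183 (0.83), that of Il27ra Dok2 (0.77) and that of Il12rb2 Lysmd3 (0.71). Among the 10 genes themselves, Il12rb1 and Il10ra were the closest (r = 0.90), and Il10ra and Ifngr2 the most opposed (r = -0.82). The chains Il6ra and Il6st had r = 0.69.

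Of 11 kinases and STATs tested behind the receptors, 1 rose and 1 fell in Id3- eTR against Id3+ cTR of lymph node, and 1 fell in spleen, where 12.9% and 12.3% of all genes were called. Counts this small do not set the list apart from all genes. Jak2, which serves the interferon-gamma and IL-12 receptors, averaged 296 ± 9.66 CPM in Id3- eTR and 159.6 ± 42.7 CPM in Id3+ cTR of lymph node (SD, n = 3 each; log2 change 0.89 ± 0.16, edgeR adjusted p = 0.0012). In spleen it averaged 319 ± 23.2 and 225 ± 25.2 CPM and was not called (0.50 ± 0.16, edgeR adjusted p = 0.0557). Jak1, which serves the receptors for IL-6, IL-27, IL-10 and interferon-gamma, averaged 809 ± 2.20 CPM in Id3- eTR and 947 ± 23.3 CPM in Id3+ cTR of lymph node (-0.23 ± 0.07, edgeR adjusted p = 0.0392), and 800.2 ± 61.6 and 1159 ± 86.7 CPM in spleen (-0.53 ± 0.07, edgeR adjusted p = 4.94e-05). The spleen difference of Jak2 was called with the mouse as a block (0.0424), RLE size factors (0.0492), no filter on low counts (0.0454), only the groups compared (0.0212) and DESeq2 (0.0197). With the block, Jak1 was not called in lymph node (0.0609). The lymph node call of Jak1 was also lost with another scaling, RLE size factors (edgeR adjusted p = 0.0577), and when any of the 6 libraries was left out (up to 0.131). Stat3 and Stat4, named here after their values were seen, were not called in either tissue, with log2 changes of -0.18 ± 0.20 and -0.21 ± 0.14 in lymph node and -0.42 ± 0.21 and 0.22 ± 0.14 in spleen.

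Of 17 feedback inhibitors, 2 rose and 2 fell in Id3- eTR against Id3+ cTR in each tissue, and these were the same 4 genes. Of all genes, 8.26% rose and 4.68% fell in lymph node, and 7.17% rose and 5.09% fell in spleen. Counts this small do not set the list apart from all genes. Socs2, an inhibitor of cytokine signalling, was at 0.82 ± 0.18 in lymph node (edgeR adjusted p = 0.00651) and 0.73 ± 0.19 in spleen (0.0176), on the log2 scale. Cish, an inhibitor induced by STAT5, was at 0.86 ± 0.10 (edgeR adjusted p = 2.54e-05) and 0.51 ± 0.11 (0.00349). Ptpn6, which encodes the phosphatase SHP-1, was at -0.65 ± 0.12 (edgeR adjusted p = 0.00168) and -0.51 ± 0.12 (0.011). Usp18, an inhibitor of type I interferon signalling, was at -1.76 ± 0.33 (edgeR adjusted p = 0.00166) and -1.72 ± 0.33 (0.0022). The spleen calls of Socs2 and Cish were lost without the 3 libraries that stand apart (edgeR adjusted p = 0.237 and 0.0633). That of Socs2 was also lost when the Id3- eTR library of mouse 86 (0.0728), the Id3+ cTR library of mouse 84 (0.0845) or that of mouse 87 (0.0552) was left out. That of Ptpn6 was lost without mouse 87 in Id3- eTR (0.055) or in Id3+ cTR (0.0717). Socs1 and Socs3, the main inhibitors of interferon-gamma and IL-6 signalling and named after their values were seen, were not called, apart from Socs1 in lymph node in limma on the normalized values (adjusted p = 0.0463), with log2 changes of -0.36 ± 0.13 and 0.07 ± 0.33 in lymph node and -0.20 ± 0.14 and 0.38 ± 0.34 in spleen.

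Of 15 ligands of these and related receptors, 7 had enough counts to test. In Id3- eTR against Id3+ cTR, 3 rose in both tissues and 1 of the 7 fell in spleen. Among all genes, 8.26% rose and 4.68% fell in lymph node, and 7.17% rose and 5.09% fell in spleen. Il10, the ligand of Il10ra, averaged 242 ± 31.3 CPM in Id3- eTR and 0.615 ± 0.796 CPM in Id3+ cTR of lymph node, and 179 ± 14.7 and 0.856 ± 0.997 CPM in spleen (SD, n = 3 each; edgeR adjusted p = 2.8e-06 and 1.23e-05). Ifng, the ligand of Ifngr1, averaged 80.1 ± 20.1 and 1.34 ± 2.0 CPM in lymph node and 142 ± 23.0 and 7.67 ± 7.71 CPM in spleen (edgeR adjusted p = 4.3e-05 and 0.000237). Ebi3, a subunit of IL-27 and IL-35, averaged 81.3 ± 12.9 and 9.45 ± 6.01 CPM in lymph node and 95.3 ± 19.8 and 2.63 ± 2.93 CPM in spleen (edgeR adjusted p = 8.47e-05 and 4.93e-06). Clcf1, a cytokine that signals through gp130, fell by 1.18 on the log2 scale in spleen (SE 0.37, edgeR adjusted p = 0.0492), with 2 of 3 mice in that direction. That call was lost with the mouse as a block (0.0796), without the 3 libraries that stand apart (0.0863) and without Id3- eTR or Id3+ cTR of mouse 86 or 87 (0.143 to 0.191). Of 16 other chains of the same receptor families, 5 could be tested and 1 rose: Crlf2, a chain of the TSLP receptor, by 1.65 ± 0.34 in lymph node (edgeR adjusted p = 0.0034) and 1.80 ± 0.36 in spleen (0.00282), the spleen call being lost without the 3 libraries that stand apart (0.162). The chromosome 16 neighbours Ifnar1 and Ifnar2 were not called, apart from Ifnar1 in spleen with only the groups compared (edgeR adjusted p = 0.0172), with log2 changes of -0.48 ± 0.21 and -0.11 ± 0.14 in lymph node and -0.53 ± 0.21 and -0.11 ± 0.14 in spleen.

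**Figure D4:**
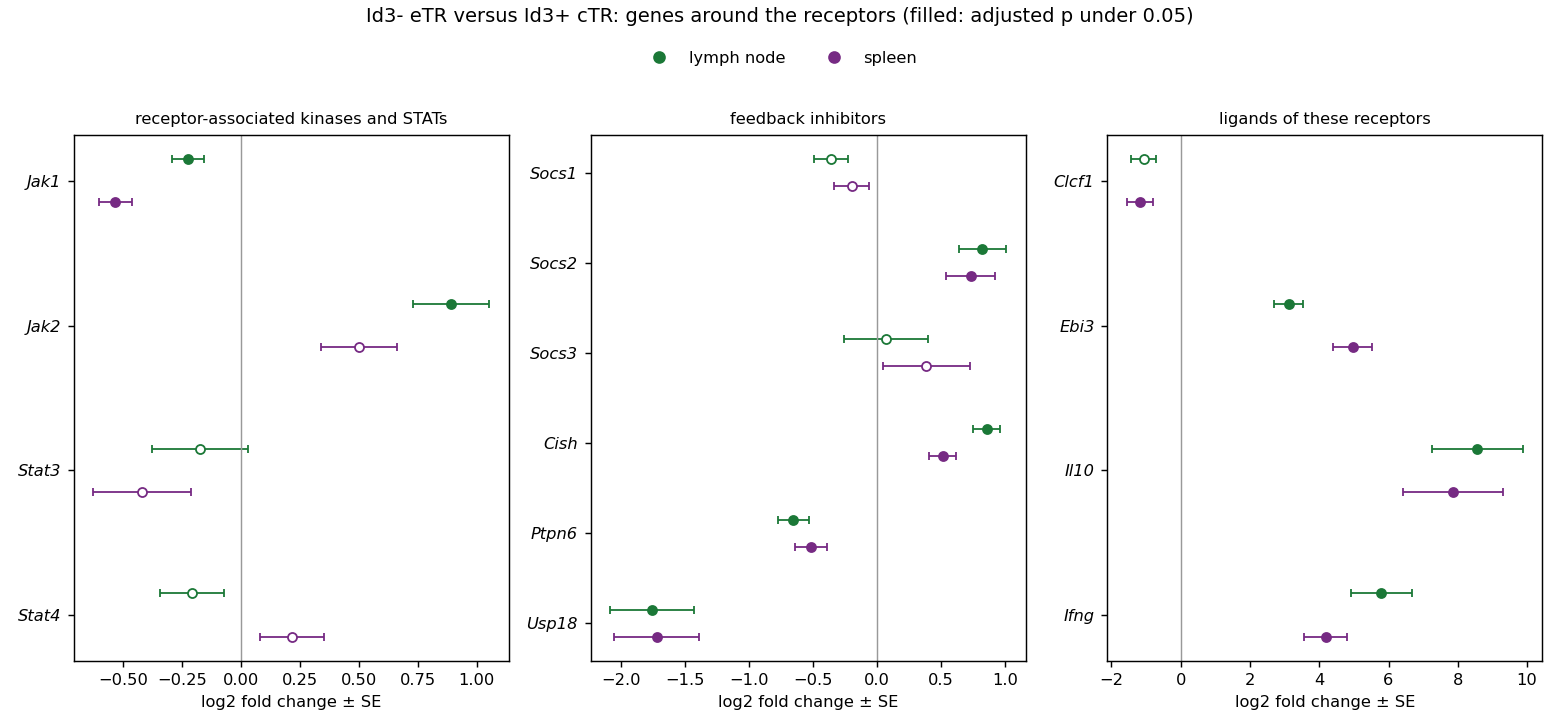
Log2 fold change ± SE between Id3- eTR and Id3+ cTR (Id3- eTR minus Id3+ cTR) of the kinases and STATs, feedback inhibitors and ligands named in the text, in lymph node and spleen; filled points have an adjusted p under 0.05 in edgeR. The kinases and STATs lie within 1 of 0, as do the inhibitors apart from Usp18, and Il10, Ifng and Ebi3 lie far to the right.

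Genes known to respond to these cytokines were read as further members of the pathways, beside the 8.26% and 7.17% of all genes that rose and the 4.68% and 5.09% that fell in lymph node and spleen. Of 14 tested STAT3 targets, 7 rose and 1 fell in lymph node Id3- eTR against Id3+ cTR, and 6 rose and 1 fell in spleen. Maf, which drives Il10, was at 4.74 ± 0.25 and 5.50 ± 0.31 on the log2 scale (edgeR adjusted p = 2.79e-09 and 1.82e-09). Rora and the aryl hydrocarbon receptor gene Ahr also rose in both tissues, Rora by 3.40 ± 0.21 and 3.09 ± 0.21 and Ahr by 3.27 ± 0.38 and 2.02 ± 0.39. The gene that fell was the survival factor Mcl1, at -0.36 ± 0.11 and -0.53 ± 0.11 (edgeR adjusted p = 0.0331 and 0.00242), calls that were lost in lymph node without any library except Id3- eTR of mouse 86 (edgeR adjusted p up to 0.131) and, for spleen, when the 3 libraries that stand apart were left out (0.0569).

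Of 20 tested genes known to respond to IL-12 or interferon-gamma, 8 rose and 1 fell in lymph node, and 9 rose and 0 fell in spleen. Cxcr3, a chemokine receptor of type 1 cells, was at 6.02 ± 0.45 and 6.41 ± 0.49 on the log2 scale (edgeR adjusted p = 3.65e-08 and 2.41e-08), and Il18rap, a chain of the IL-18 receptor, at 4.89 ± 0.82 and 4.68 ± 0.84 (0.00045 and 0.000824). Tbx21, which encodes T-bet, averaged 9.15 ± 0.661 CPM in Id3- eTR and 0.355 ± 0.0239 CPM in Id3+ cTR of lymph node, and 52.0 ± 27.3 and 0.845 ± 0.732 CPM in spleen (SD, n = 3 each; edgeR adjusted p = 0.00182 and 0.000112; 0.0585 in lymph node under limma-voom). The gene that fell in lymph node was the guanylate-binding protein gene Gbp2, at -0.49 ± 0.14 (edgeR adjusted p = 0.0249, and up to 0.0885 with mouse 86 or 87 left out of Id3- eTR, or mouse 84 or 87 out of Id3+ cTR). Gbp2 and Mcl1 were named after their values were seen, and the lists hold genes that many other signals also control. Of 4 genes that shed the IL-6 receptor from the cell surface, 3 were tested, and the protease gene Adam10 rose in lymph node (0.58 ± 0.16, edgeR adjusted p = 0.0231), a call lost with mouse 87 left out of Id3- eTR (0.107), or mouse 86 (0.0549) or 87 (0.0957) out of Id3+ cTR.

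Sums of markers of other cells differed between Id3- eTR and Id3+ cTR for some lists. In spleen those of the myeloid and of the B cell genes overlapped. Beside the calls below, 8.26% of all genes rose and 4.68% fell in lymph node, and 7.17% and 5.09% in spleen. The 10 CD8 T and NK cell genes summed to between 491 and 648 CPM in Id3- eTR and between 95.9 and 136 CPM in Id3+ cTR of lymph node, and to between 450.4 and 487 and between 88.7 and 187 CPM in spleen. Of the 8 tested, 4 rose in lymph node (Nkg7, Gzmb, Klrk1 and Ccl5) and 3 in spleen (Nkg7, Gzmb and Ccl5), and the rest were not called. The NK marker Ncr1 was at 0 in every group. The 12 myeloid and dendritic genes summed to between 328 and 365 CPM in Id3- eTR and between 141 and 167 CPM in Id3+ cTR of lymph node, where Csf1r, Itgax and Cd14 were at 0 in both. In spleen they summed to between 247 and 305 CPM and between 137 and 265 CPM. There none of the 12 was at 0 in Id3- eTR, and Itgam, Adgre1 and Cd14 were at 0 in Id3+ cTR. Of the 6 tested, 4 rose in lymph node (Spi1, Cst3, Tyrobp and Fcer1g) and 3 in spleen (Cd68, Tyrobp and Fcer1g). The 8 conventional CD4 T cell genes summed to between 413 and 541 and between 342 and 375 CPM in lymph node, and to between 605 and 679 and between 343 and 447 CPM in spleen. Of the 6 tested, 3 rose (Il4, Bhlhe40 and Ifng) and 1 fell (Tnfsf8) in each tissue. Il17a, the cytokine of the cells best known for Il23r, was at 0 in lymph node Id3- eTR and in all Id3+ groups. In spleen Id3- eTR, where Il23r was also high, Il17a had counts.

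The 9 B cell genes summed to between 866 and 898 CPM in Id3- eTR and between 603 and 740.4 CPM in Id3+ cTR of lymph node, with Pax5 and Ebf1 at 0 in Id3- eTR, and to between 825 and 887 and between 824 and 964 CPM in spleen. Of the 7 tested, Ighm rose in lymph node (8.26% of all genes rose), and Cd79a fell in spleen (5.09% of all genes fell). Of the 7 stromal and endothelial genes, 6 were at 0 in Id3+ cTR of both tissues and 1, Pecam1, could be tested, which fell in both (log2 change -1.89 in lymph node and -1.83 in spleen). Their sum, in Id3+ cTR that of Pecam1 alone, lay between 64.9 and 79.4 CPM in Id3- eTR and between 201 and 292 CPM in Id3+ cTR of lymph node, and between 76.6 and 111 and between 282 and 345 CPM in spleen. The 8 erythroid and platelet genes reached at most 11.7 CPM in lymph node and summed to between 29.7 and 103 CPM in Id3- eTR and between 147 and 241 CPM in Id3+ cTR of spleen. These marker genes were named after their values were seen. The part of these cells in the levels of the receptor genes was not tested.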

How the data were processed

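Libraries were made with the SMART-Seq v4 kit and Nextera XT, per the labels' protocols. The authors deposited a table of read counts per gene and a table of normalized values. Per the submitters' processing notes, FastQC, Bowtie, TopHat, SAMtools, Picard and HTSeq 0.4.1 were used, whose roles, like the genome build and whether duplicate reads were removed, are not given in the sources used here. The deposited normalized signal equals the counts times 1 factor per library for 99.986% of values of 13883 matched genes, within 0.1%. It was used for 1 alternative, and the counts for all else. Of 37991 rows of the count table, 5053 had no symbol and held 0.891% of the counts.

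Counts were fitted with edgeR 4.0.16 in R 4.3.3: TMM scaling, a filter at a minimum count of 10, 6 group terms without a mouse term, 12 residual degrees of freedom, the robust quasi-likelihood test and Benjamini-Hochberg adjustment over 12445 genes. Alternatives used limma 3.58.1, DESeq2 1.42.0, RLE scaling, no filter, only the groups compared, the mouse as a block, each library left out, and the 3 libraries that stand apart left out. Same-numbered libraries come from the same mouse by label, and their deviations from the group means correlated at 0.02 (-0.03 to 0.08 over 45 pairs; -0.01 for different mice). The fit was also run on counts simulated from its own mean levels and spread, with changes set in spleen Id3- eTR. That simulation held no library that stands apart, and its result is not given here.

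All 10 receptor genes are named, up to 4 called genes per list by size of change, and up to 3 genes with the highest r to each. Some genes that this rule names are not reported here. A fold against a group at 0 counts is given as a bound from 3 counts over the group. Depths of 1600782 to 3153325 counts limit the precision for Il12rb2 and Il23r, and their floors cover counting error only. The genes and lists were chosen with earlier results of these data known.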

Additional observations from a re-analysis of the deposited data

How the results depend on the processing

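Of the 17 calls for receptor genes, 6 held in every alternative run: Il23r, Il10ra and Ifngr2 in lymph node and Il6ra, Il12rb1 and Il10ra in spleen, all for Id3- eTR against Id3+ cTR. Of 1820 alternative values, 0 changed sign where the main or the alternative run gave a call. A further 107 of the 1820 changed sign without a call in either run. The number called of 10 in lymph node Id3+ eTR against Id3+ cTR was 0 under limma-voom, in place of 1. In lymph node Id3- eTR against Id3+ eTR, in place of 1, it was 0 with the mouse as a block, 0 in limma on the normalized values, and 2 under limma-voom and DESeq2. Without the 3 libraries that stand apart, fewer were called in spleen against Id3+ cTR, where mouse 86 alone remained. In spleen Id3+ eTR against Id3+ cTR the number called was 0 under limma-voom and with only the groups compared, in place of 2. In spleen Id3- eTR against Id3+ eTR it was 0 with only the groups compared, in place of 2. For lymph node against spleen in Id3- eTR it was 1 under limma-voom, limma on the normalized values and DESeq2, in place of 0.

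With each library left out in turn, the numbers ran from 3 to 4, 0 to 1 and 0 to 1 in lymph node for Id3- eTR against Id3+ cTR, Id3+ eTR against Id3+ cTR and Id3- eTR against Id3+ eTR. In spleen they ran from 6 to 7, 1 to 2 and 0 to 4 for the same comparisons. They ran from 0 to 1 between the tissues in Id3- eTR and stayed at 0 in the other comparisons of tissue. The replicate block changed 1 call of a receptor gene, that of Il10ra between Id3- eTR and Id3+ eTR of lymph node (adjusted p = 0.065), and 7 calls of listed genes. The causes of these changes were not tested. Depth limits Il12rb2 and Il23r, which had few counts.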
